A study of Mus musculus with 8 samples.

Results

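The domains described here were runs of 3 or more regions along a chromosome at which acetylated histone H3 lysine 27 (H3K27ac) differed in the same direction between Nrip1KO and Ctrl primary mouse myotubes. They were chosen by their H3K27ac change, from the deposited lists of increased and decreased regions (increased meaning higher in Nrip1KO). Within each list, regions whose gap from the end of 1 to the start of the next was at most 12.5 kb were joined, on chromosomes 1 to 19 and X without 4, 7, 10 and 16. This gave 185 domains with 661 of 7803 eligible regions, and the lists hold 11180 regions in all. Of the domains, 22 were increased (80 regions) and 163 were decreased (581 regions). The chromosomes left out were those with unusual mixes, chromosome 7 with 973 increased and 23 decreased regions and chromosome 4 with 66 and 811, while chromosomes 10 and 16 had 453 and 203, and 66 and 780.

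The study made 8 CUT&RUN libraries in 4 groups of 2, Nrip1KO and Ctrl myotubes with an H3K27Ac or an IgG antibody. Satellite cells from gastrocnemius muscle were expanded over several passages and differentiated for 4 days, and nuclei were pooled and split between antibodies. The mice carried a floxed Nrip1 allele, with Cre under the muscle creatine kinase promoter of the study's striated muscle line, which is active in heart and skeletal muscle, and controls were Cre-negative littermates. Nothing in the labels says that the 2 libraries of a group came from separate animals. The lists hold differential intervals without levels, so the labelled cell type could not be checked against marker levels, depth per library is unknown, and no value per library was used. The study's calls set a 2-fold difference in peak intensity. All values below are therefore descriptions of listed intervals with no test between groups, and intervals on shares are 95% Wilson intervals that cover counting error only, over regions that are not independent of their neighbours.

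CUT&RUN cuts and sequences DNA bound by an antibody target in intact nuclei. H3K27ac is laid down by the acetyltransferases p300 and CBP and marks active enhancers and promoters. Enhancers often lie in groups along the DNA, and stretches in which many acetylated elements sit close together are known to mark genes that matter for a cell's identity. Nrip1 encodes RIP140, a coregulator of nuclear receptors that recruits histone deacetylases and can repress or activate its targets.

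Short stretches of the domains with the most regions are printed to show DNA inside these groups and the factor sites spelled in it. For the 3 domains per direction with the most regions, the 150 bases outside exons with the most matches are given on the plus strand of GRCm38.p6 (the assembly behind mm10), named by lead gene, that is the protein-coding gene whose start was nearest to most regions. Capitals mark matches on either strand to CAGCTG (the E-box read by myogenic bHLH factors), TGACTCA (AP-1), ACATTCC or GCATTCC (TEAD), CTA and TAG set 4 bases apart (MEF2) and TGTGGT (RUNX). The same search covered TCAAGGTCA (ERR) and TTGGC and GCCAA set 5 bases apart (NFI). No motif of the 7 contains another, and a match is a spelling in the DNA, not a bound site.
Pla2g4a, increased, intron, chr1:149876727-149876876: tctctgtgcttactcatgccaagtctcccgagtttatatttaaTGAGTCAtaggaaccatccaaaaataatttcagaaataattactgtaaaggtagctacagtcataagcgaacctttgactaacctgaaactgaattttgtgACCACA
Eipr1, increased, intergenic, chr12:29116993-29117142: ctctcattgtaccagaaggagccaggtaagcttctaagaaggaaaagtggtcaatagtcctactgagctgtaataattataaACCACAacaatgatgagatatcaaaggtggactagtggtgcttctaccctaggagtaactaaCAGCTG
Nt5e, increased, intergenic, chr9:88200750-88200899: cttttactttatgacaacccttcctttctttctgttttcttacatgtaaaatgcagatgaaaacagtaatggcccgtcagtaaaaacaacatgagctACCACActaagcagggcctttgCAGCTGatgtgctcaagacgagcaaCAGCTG
2900026A02Rik, decreased, intron, chr5:113157819-113157968: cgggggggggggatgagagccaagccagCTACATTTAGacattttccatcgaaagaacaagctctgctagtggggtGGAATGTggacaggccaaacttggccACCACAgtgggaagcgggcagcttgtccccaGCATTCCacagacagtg
Gm7361, decreased, intergenic, chr5:26169973-26170122: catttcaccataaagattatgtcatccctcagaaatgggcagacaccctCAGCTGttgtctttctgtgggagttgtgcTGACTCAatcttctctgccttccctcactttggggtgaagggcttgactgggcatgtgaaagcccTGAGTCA
Plxna1, decreased, intron, chr6:89350008-89350157: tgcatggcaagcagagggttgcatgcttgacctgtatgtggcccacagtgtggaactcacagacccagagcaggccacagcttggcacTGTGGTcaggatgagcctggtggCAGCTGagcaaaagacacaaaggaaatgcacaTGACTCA
The increased stretches held 2, 2 and 3 matches in this order and the decreased ones 4, 3 and 3.

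Grouping was far more common among decreased regions. Of 5445 eligible decreased regions, 10.7% (9.88 to 11.5%) lay in domains, against 3.39% (2.73 to 4.20%) of 2358 increased regions. Increased regions made up 12.1% (9.83 to 14.8%) of the regions in domains, where they were 30.2% of all eligible regions. The decreased list is the longer one, and the part of list length in this difference was not tested. Pairs were likewise less common among increased regions. The 139 increased pairs held 278 of the 2358 eligible increased regions, and the 541 decreased pairs held 1082 of the 5445 decreased ones.

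Most domains were at the minimum of 3 regions, 15 of 22 increased (68.2%) and 115 of 163 decreased (70.6%). The increased domains reached 7 regions, and the decreased ones reached 14. Domains of 5 or more regions numbered 4 among the 22 increased domains (1 of 7, 1 of 6 and 2 of 5 regions) and 18 among the 163 decreased ones.

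**Figure D1:**
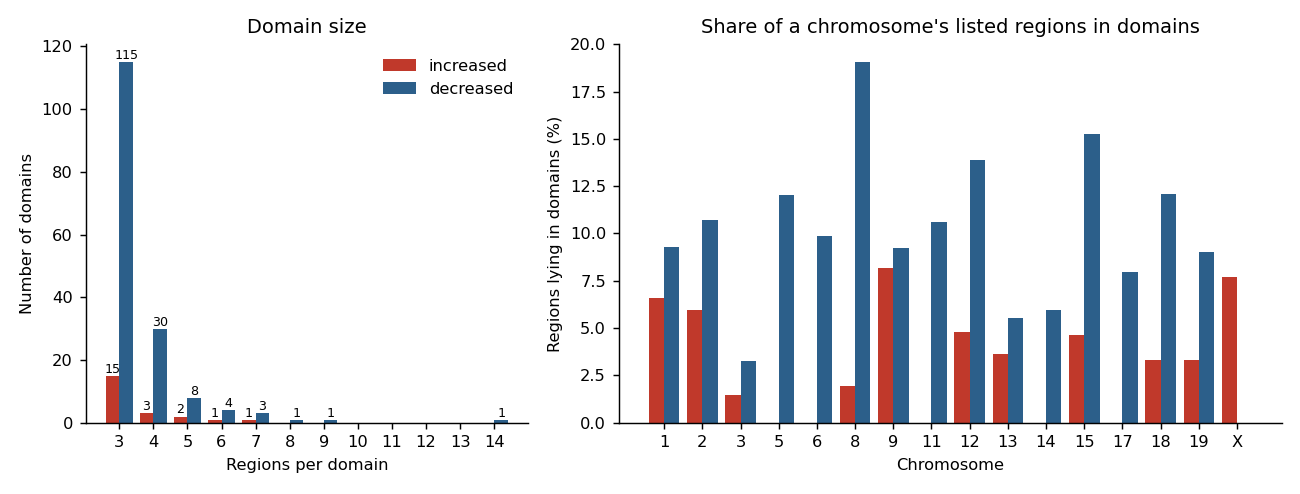
Left, number of domains (y axis) by the number of regions they hold (x axis), increased in red and decreased in blue. Right, share of each chromosome's eligible regions that lay in domains, in percent; decreased regions reached 19.1% on chromosome 8, and chromosome X held 2 increased domains and no decreased one.

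Domains were spread unevenly over chromosomes. Chromosome 8 held 23 decreased domains with 89 of its 467 decreased regions (19.1%), followed by chromosome 15 with 55 of 360 (15.3%) and chromosome 12 with 44 of 317 (13.9%). Chromosome 3 was lowest among autosomes, with 9 of 276 decreased regions in domains (3.26%). Increased domains were present on 11 of the 16 chromosomes used and absent from 5, 6, 11, 14 and 17. The mix of directions varied among these chromosomes too, from 16.2% increased on chromosome 11 to 44.9% on chromosome 18 and 53.8% on X, and its part in where domains lie was not tested.

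The domains had similar extents in both directions. The span from first to last base had a median of 15843 bp in the increased domains (range 3453 to 36798 bp) and 15312 bp in the decreased domains (3549 to 93749 bp). The regions themselves covered a median of 3746 bp and 4074 bp of that span. The widest region of a domain held a median of 50.6% of its covered bases in increased domains and 45.5% in decreased ones. Gaps inside domains had medians of 3339 bp and 4196 bp. The largest gaps kept were 12130 bp, beside the apoptosis gene Pmaip1, and 12476 bp, beside the planar polarity gene Vangl1. Just outside the limit, a lone increased region lay 12937 bp from the Pla2g4a domain, and a lone decreased region lay 12630 bp from the domain at Pgpep1 and Gdf15.

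**Figure D2:**
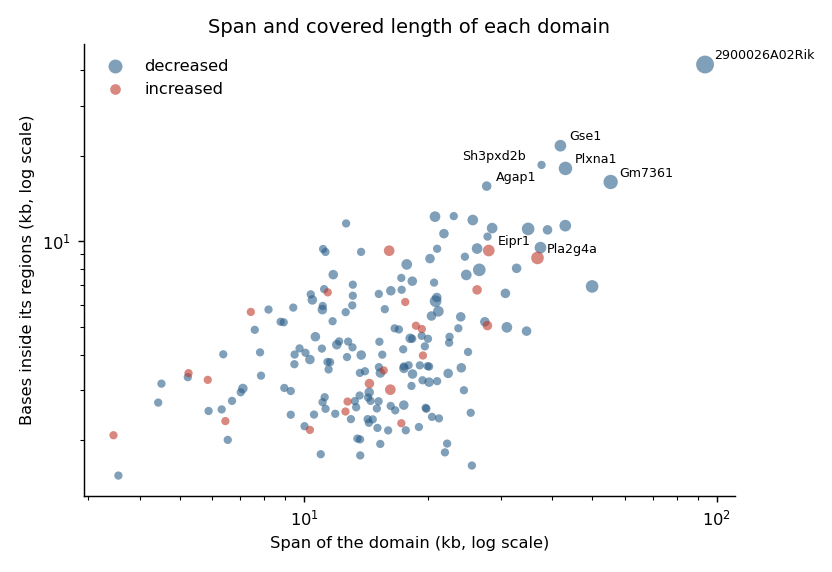
Bases inside regions (y axis, kb, log scale) against span (x axis, kb, log scale) for each of the 185 domains, with point area rising with the number of regions. The decreased 2900026A02Rik domain lies alone at the top right, with 41846 bases covered over 93749 bp, and the increased domains lie within the cloud of decreased ones.

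The largest increased domain lay in Pla2g4a, which encodes the cytosolic phospholipase A2 that frees arachidonic acid from membranes. Its 7 regions ran over 36798 bp (chr1:149876128-149912925) and were 1082, 2445, 2002, 1188, 501, 767 and 763 bp wide. The sixth was centred 382 bp from a Pla2g4a start and the others were intronic. A further increased domain of 3 regions, the widest 4300 bp, lay 29923 bp away inside the same gene (chr1:149942849-149960441). Pla2g4a was the nearest coding gene to 14 increased and 0 decreased regions in all, of which 10 were in these domains.

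The next domains by number of regions mostly lay far from coding starts. The Eipr1 domain had 6 regions over 28038 bp (chr12:29116074-29144111) that overlapped no coding gene and began 254226 bp from the start of Eipr1, whose product acts in endosomal sorting. It covered 9289 bp, the most of any increased domain. The Nt5e domain had 5 intergenic regions over 16083 bp (chr9:88190292-88206374), with its nearest centre 121138 bp upstream of Nt5e, which encodes CD73, the surface enzyme that turns AMP into adenosine. One of its regions was 4198 bp wide. The Fxyd6 domain had 5 regions over 16186 bp that straddled the gene's start, and Fxyd6 belongs to the small regulators of the sodium-potassium pump. Its regions were narrow, 501 to 765 bp.

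Nt5e was the only coding gene nearest to domains of both directions. A decreased domain of 3 regions (chr9:88328544-88345125) lay inside the gene, with a centre 2611 bp from a start. The increased and decreased Nt5e domains were 122169 bp apart, and 3 listed regions lay between them. The first of these, a lone decreased region of 1031 bp, was 17965 bp from the increased domain. The domain far upstream was thus listed as increased and the domain within the gene as decreased. The upstream stretch was mixed, since the lone decreased region also lay upstream of Nt5e, centred 102342 bp from a start.

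The remaining increased domains had 3 or 4 regions. Those of 4 lay in Etl4 and in Adamts6, which encodes a secreted metalloprotease of the extracellular matrix, and 172129 bp from Mtx2, a gene for a mitochondrial outer membrane protein that neighbours the HoxD cluster. A related metalloprotease gene, Adamts20, held 2 domains of 3 regions 26381 bp apart. The developmental transcription factor gene En1 had a domain of 3 regions at its start (chr1:120596837-120608252), of which the widest was 5490 bp, the widest region in any increased domain. The dystrophin gene Dmd, on X, had a domain of 3 regions at and after a start (chrX:82949074-82961825), with centres 975, 3425 and 12610 bp into the gene.

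Other increased domains lay at genes of signalling and adhesion. Pde4d (a cAMP phosphodiesterase) and Itga9 (an integrin subunit) held domains of 3 regions. Both genes were mixed over all eligible regions, Pde4d being nearest to 4 increased and 5 decreased and Itga9 to 4 and 3. Adgrl4, an adhesion receptor gene known from endothelium, had its domain 51613 bp from a start. The Ftsj1 domain on X also had a region nearest to Porcn, whose product acylates Wnt proteins, and was the sole increased domain with more than 1 nearest coding gene. The other domains were led by Pmaip1 and Serpinb7, a serine protease inhibitor gene, by Mtmr7 (a phosphoinositide phosphatase gene) and Gcnt1 (a glycan-branching enzyme gene), and by Rttn and the connexin gene Gjd2.

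**Figure D3:**
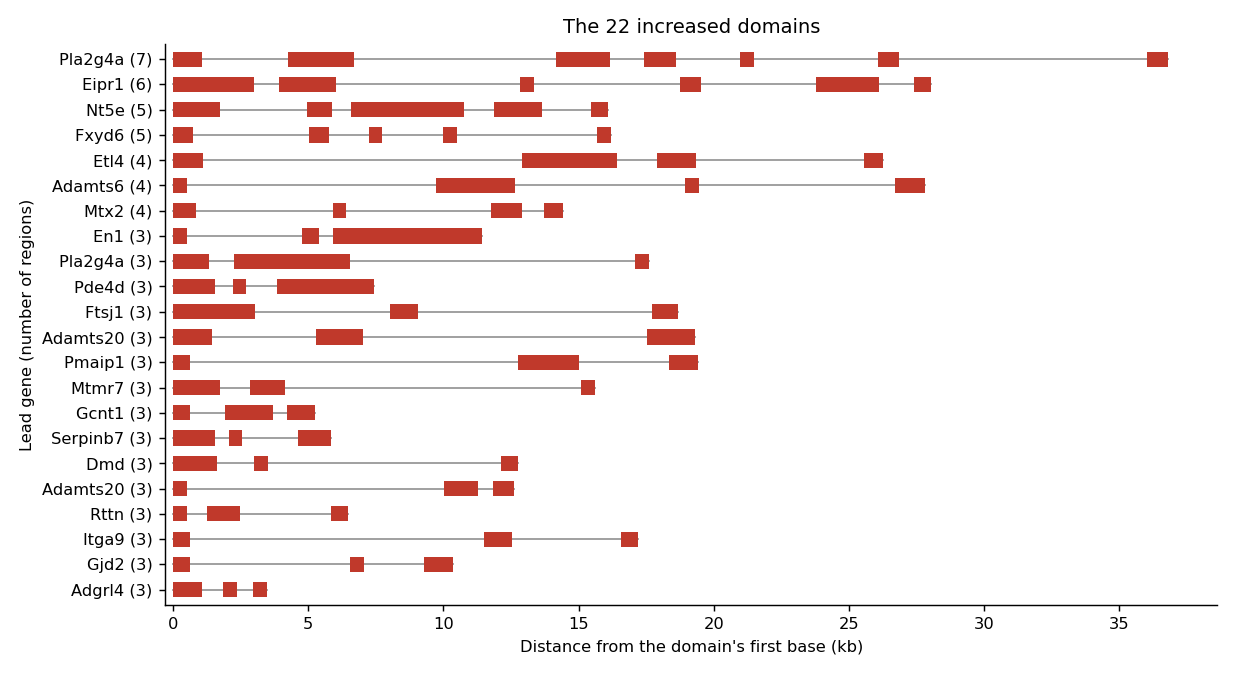
Maps of the 22 increased domains, each a row named by its lead gene with its number of regions in brackets; red boxes are regions drawn to scale by distance in kb from the domain's first base. The Pla2g4a domain is the longest at 36798 bp and the Adgrl4 domain the shortest at 3453 bp.

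The largest decreased domain lay within 2900026A02Rik. It had 14 regions over 93749 bp (chr5:113127166-113220914), from 501 to 8811 bp wide, of which 13 were intronic and 1 was promoter-proximal (centred within 1 kb of any annotated start). A further domain of 3 regions, led by Crybb3, lay 13961 bp away in the same gene and covered 11565 of its 12646 bp, the highest share of any domain (91.5%). The regions of the large domain had a mean GC content of 55.3%.

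The decreased domains next in number of regions fell at a guidance receptor gene and in gene-poor stretches. Plxna1, a receptor for semaphorins, had 8 regions over 43021 bp (chr6:89314030-89357050). Of these, 4 were promoter-proximal, and the widest were intronic, with 6328 and 5879 bp. The 9 regions of the Gm7361 domain (chr5:26169423-26224777) were all intergenic, 33871 bp or more from Gm7361, and 3 of them were nearer to Gm10220, both predicted genes. The sequence there was mostly unique, since the most repeated of its regions had 15.8% of its 31-base words present more than once in the genome. The 7 regions of the Gm826 domain (chr2:159814746-159849670) lay 464336 bp or more from the nearest coding start, and a further domain of 5 regions lay 85985 bp away.

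The 7-region decreased domain at Angpt2 lay over and beyond the 3′ part of that gene, within its host gene Mcph1 (chr8:18672657-18699250). Angpt2 encodes angiopoietin 2, a ligand of the endothelial receptor Tie2. A lone increased region of 950 bp lay 41896 bp away, centred 60 bp from the upstream Angpt2 start, while the last region of the decreased domain was centred 693 bp from a downstream annotated Angpt2 start, so regions near different starts of this gene were listed in opposite directions. Itpk1, a kinase of inositol phosphates, held 7 narrow regions over 49915 bp, which covered 13.9% of the span, and a further domain of 3 regions. Gse1 had 6 regions that covered 21695 bp over 41824 bp (chr8:120255655-120297478), all intronic, and a further domain of 4 regions lay 14606 bp away. Gse1 was nearest to 16 decreased and 0 increased regions. Slc45a4, a solute carrier gene, also had 6 regions, over 42975 bp. Gm10803 (6 regions, 9506 bp covered) and the adhesion receptor gene Adgrg1 (6 regions, 6163 bp covered) tied with these by number and followed by covered bases.

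**Figure D4:**
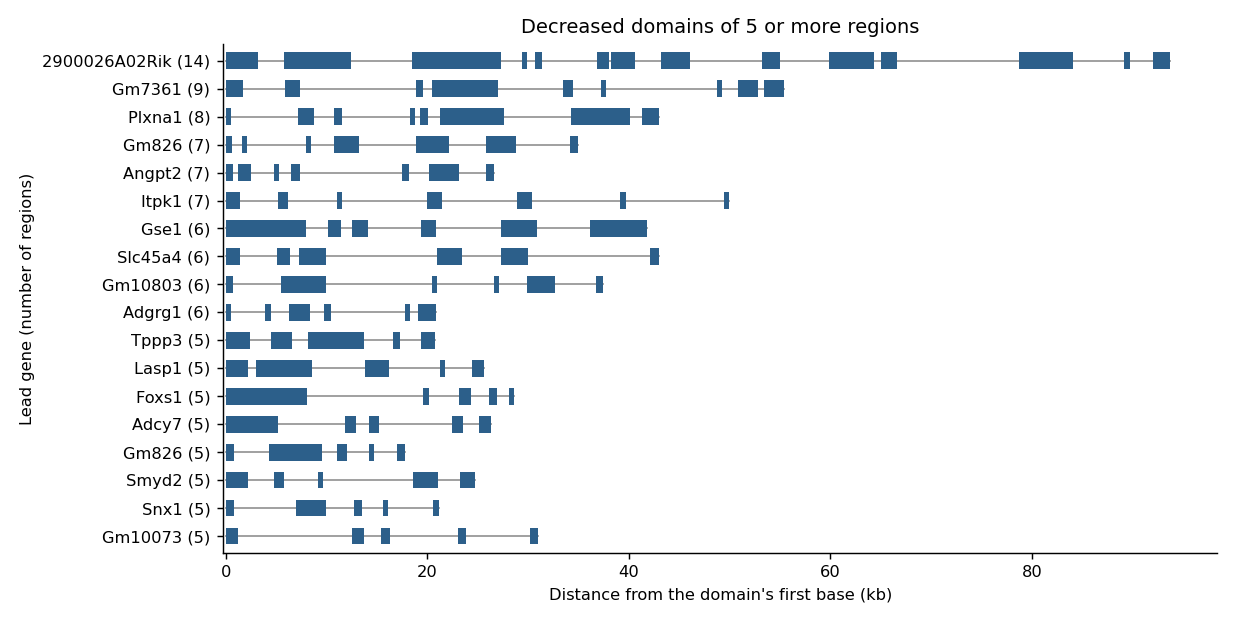
Maps of the 18 decreased domains of 5 or more regions, drawn as for the increased domains with regions in blue and distance in kb from the domain's first base. The 2900026A02Rik domain ends at 93749 bp, and the next longest, at Gm7361, spans 55355 bp.

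By covered bases, the leading decreased domains were 2900026A02Rik, Gse1, Sh3pxd2b (18570 bp in only 3 regions), Plxna1 (18052 bp) and Gm7361 (16176 bp). Sh3pxd2b encodes a scaffold of podosomes, the adhesive protrusions of invasive cells. One of its regions, 9929 bp wide, was the widest in any domain. By the same measure the leading increased domains were Eipr1, Nt5e (9274 bp), Pla2g4a (8748 bp), Etl4 (6755 bp) and En1 (6621 bp).

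Several lead genes had more than 1 domain, namely 2 of 20 increased lead genes (Pla2g4a and Adamts20) and 11 of 152 decreased ones. The decreased genes, singled out after their values were seen, were Adcy7, Arid1b, Cxcr4, Fam129a, Gm7361, Gm826, Gse1, Hs1bp3, Itpk1, Slc35f3 and Vat1l. Cxcr4 encodes a chemokine receptor used by muscle progenitors, and its domains were 27024 bp apart, 1 of them overlapping Cxcr4 and neither with a coding start inside. Arid1b, a subunit of the BAF chromatin remodeller, had its domains 153483 bp apart, the nearer with its closest centre 255295 bp from a start.

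No domain of either direction had a region of the other direction inside its span. The closest case was Adcy7, which encodes an adenylyl cyclase. Its decreased domains of 5 and 3 regions were 16024 bp apart, and an increased region of 762 bp (chr8:88272853-88273614), centred 831 bp from an Adcy7 start, lay between them, 1385 bp from the smaller domain and 13877 bp from the larger. Opposite regions lay within 20 kb of 1 of 22 increased and 2 of 163 decreased domains. Within 50 kb these were 2 of 22 and 8 of 163. The median distance to the nearest opposite region was 454142 bp for increased and 404417 bp for decreased domains.

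Regions were joined by closeness, so a shared nearest gene follows in part from the rule. All regions of a domain shared 1 nearest protein-coding gene in 21 of 22 increased domains (95.5%, 78.2 to 99.2%) and 136 of 163 decreased domains (83.4%, 77.0 to 88.4%). With all annotated genes in place of coding genes these counts were 16 and 94. The span lay wholly inside a coding gene in 11 of 22 increased and 74 of 163 decreased domains, and overlapped no coding gene in 6 and 49. A coding start lay inside the span in 5 of 22 (22.7%, 10.1 to 43.4%) and 57 of 163 (35.0%, 28.1 to 42.6%). The nearest coding start was over 100 kb from every region in 4 and 20 domains. In all, 21 coding genes were nearest to a region of an increased domain and 177 to one of a decreased domain. These are 0.126% and 1.06% of the 16720 coding genes on these chromosomes, where 9.73% and 18.5% were nearest to any eligible increased or decreased region.

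Promoter-proximal regions were a small share of domain regions in both directions. Of 80 increased ones, 5 were promoter-proximal (6.25%, 2.70 to 13.8%), against 307 of 2278 increased regions outside domains (13.5%, 12.1 to 14.9%), and these intervals overlap. Among decreased regions the shares were 58 of 581 (9.98%, 7.80 to 12.7%) and 548 of 4864 (11.3%, 10.4 to 12.2%). With a distance of 2500 bp the domain shares were 11.3% and 21.0%. Introns held 45 of 80 increased (56.3%) and 296 of 581 decreased domain regions (50.9%), and intergenic DNA held 29 and 203. Domain regions were nearer to coding starts than those outside, with median distances of 18241 against 29402 bp in the increased list and 13528 against 17588 bp in the decreased list.

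No domain consisted of promoter-proximal regions alone. The share was highest, 2 of 3 regions, in the decreased domains at Rgs12, a regulator of G-protein signalling, at the septin gene Sept4 and at Hps1. Among increased domains the highest share was 1 of 3, at En1, Pmaip1 and Dmd.

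Base composition separated the directions inside domains as it did outside. The GC content of increased domain regions averaged 42.9% ± 5.38 (SD, n = 80 regions), and of decreased ones 49.3% ± 4.76 (SD, n = 581 regions). In the decreased list the mean was 47.8% for regions alone, 48.3% in pairs and 49.3% in domains, steps smaller than the SD over regions. In the increased list the means were 43.0%, 42.6% and 42.9%, with no such order. By domain, the increased list ran from 31.6% at Dmd to 54.2% at En1, and the decreased list from 40.1% at the guidance ligand gene Sema3e to 56.3% at Zfpm1, a cofactor of GATA factors. The decreased Nt5e domain, at 40.7%, was close to the increased Nt5e domain, at 41.0%. Soft-masked repeats took 19.5% of increased and 17.0% of decreased domain regions on average, with SDs of 15.1 and 14.5.

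**Figure D5:**
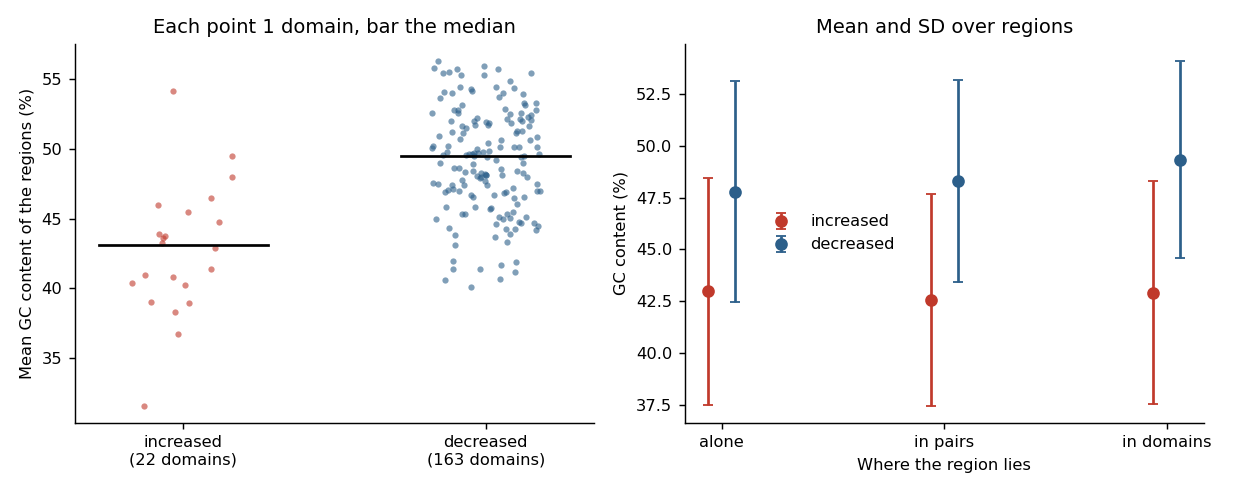
Left, mean GC content in percent of the regions of each domain (points) with the median as a bar; right, mean GC content with SD over regions that lay alone, in pairs or in domains, increased in red and decreased in blue. Increased domains had a median of 43.1% and decreased ones 49.5%.

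Regions in domains were also wider. Their median width was 1003 bp in the increased list, against 735 bp outside domains, and 1022 bp against 827 bp in the decreased list. Of the increased domain regions 19 of 80 (23.8%) and of the decreased ones 89 of 581 (15.3%) were at 501 bp, the shortest width in the lists.

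The 7 motifs were searched in the same window of every region, and no motif was tested between groups. In the central 500 bp, the E-box was spelled in 25 of 80 increased domain regions (31.3%, 22.2 to 42.1%) and 209 of 581 decreased ones (36.0%, 32.2 to 40.0%), against 28.8% and 37.9% of regions outside domains. MEF2 was spelled in 5 of 80 (6.25%, 2.70 to 13.8%) and 35 of 581 (6.02%, 4.36 to 8.26%), against 11.6% and 9.19% outside, and among the decreased regions these intervals (outside, 8.41 to 10.0%) did not overlap. Over whole regions the shares were close, with MEF2 in 17.4% of decreased domain regions and 17.2% of those outside. Domain regions were the wider, and the MEF2 densities of the decreased list were 0.145 per kb in domains and 0.182 per kb outside. For AP-1 the shares in domains were 12.5% and 11.4%, against 16.8% and 13.1% outside, and for TEAD 18.8% and 15.1%, against 17.9% and 14.1%. RUNX was spelled in 32.5% and 38.6%, against 35.3% and 36.4%. ERR was spelled in 0 of 80 and in 11 of 581 (1.89%, 1.06 to 3.36%), against 1.05% and 1.25% outside. Over whole regions ERR was in 5.51% of decreased domain regions and 2.90% of those outside, with densities of 0.0364 and 0.0280 per kb, domain regions being the wider. NFI was spelled in no domain region of either direction in this window, against 0.132% and 0.0617% outside.

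Taken over whole regions, most domains held the E-box in at least 2 regions, and most also held RUNX in at least 2. The E-box was spelled in at least 2 regions of 15 of 22 increased (68.2%) and 115 of 163 decreased domains (70.6%). RUNX was spelled so in 14 of 22 (63.6%) and 123 of 163 (75.5%), and MEF2 in 1 of 22 and 23 of 163. Single regions in increased and decreased domains held the E-box in 51.3% and 61.1%, against 41.1% and 55.9% outside. For RUNX these shares were 56.3% and 63.2%, against 50.6% and 56.3%. Each domain has 3 or more regions, so the counts by domain follow in part from these shares. The 2900026A02Rik domain held 29 E-boxes and 5 MEF2 spellings over its 41846 covered bases (0.693 E-boxes per kb), and the Plxna1 domain 18 E-boxes (0.997 per kb). The Pla2g4a domain of 7 regions held a single E-box (0.114 per kb), 4 TEAD and 3 AP-1 spellings, and no MEF2. Over all decreased domain regions the E-box density was 0.867 per kb and over all increased ones 0.608 per kb, against 0.885 and 0.630 per kb outside domains.

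On these chromosomes lie 416 genes of 12 lists of muscle, pathway and other cell type genes. Of them, 2 (0.481%) were nearest to an increased and 13 (3.13%) to a decreased domain, where 0.126% and 1.06% of all coding genes were. The lists include genes that the study named with the help of these data, among them Wnt16 and Bdnf, so these shares are a description only. The single lists below are small and were not compared with these shares. Of 52 sarcomere and mature myotube genes, Dmd was nearest to an increased domain and none to a decreased one. Of 31 myogenic regulators, Nfix (3 intronic regions, chr8:84751657-84770640) and Nfatc2 (chr2:168547441-168555642) were nearest to decreased domains. Nfix encodes a factor of the switch to fetal myogenesis, and Nfatc2 one that acts in myotube growth. Of 85 developmental transcription factors, En1 was nearest to an increased domain and Meis1, whose 4 regions began 402148 bp from a start, to a decreased one.

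In the signalling, junction, nuclear receptor and matrix lists, the genes nearest to a domain were all at decreased ones. Of all coding genes, 177 were nearest to a decreased and 21 to an increased domain, and the lists were not tested against this. Of 47 TGF-beta, BMP and Wnt genes, those at decreased domains were Tgfb2, with 3 regions 188601 bp or more away, and its signal transducer Smad3. The Smad3 domain had 3 intronic regions (chr9:63708395-63723573). A further decreased domain, led by Aagab (chr9:63647249-63654844), lay 53550 bp away inside Smad3 and also had a region nearest to Smad3. Of 37 neuromuscular junction and guidance genes they were Dok7, the activator of the muscle kinase MuSK, Sema3e and the semaphorin and VEGF receptor gene Nrp2. Of 43 nuclear receptor and metabolism genes the sole one was Rxra, the common partner of nuclear receptors, with 4 intronic regions covering 10647 bp (chr2:27690609-27712441). Itga11, a collagen-binding integrin, was the 1 of 43 fibroblast and matrix genes. Over all eligible regions, 18 junction and guidance genes were nearest to an increased and 18 to a decreased region. These counts were 17 and 17 for matrix, 11 and 17 for signalling, and 9 and 20 for nuclear receptor and metabolism genes.

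In the lists for other cell types, Vegfa and Angpt2 of 25 endothelial and mural genes were nearest to decreased domains. So was Pmp22, a myelin protein gene, of 9 Schwann and neural genes. The endothelial list also holds angiogenic genes that the paper reported as raised in Nrip1-deficient muscle, Vegfa among them, so it is not made of markers alone. The Vegfa domain had 3 intergenic regions and 1 at a non-coding exon (chr17:45879797-45898095), 124424 bp or more from a Vegfa start. None of 23 AP-1 and stress factors, 17 adipocyte and cartilage or bone markers and 8 immune markers was nearest to a domain, and no immune marker was nearest to any eligible region.

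Further genes at decreased domains, most of them genes of muscle tissue, were picked from the 163 domains after their values were seen. The fixed list of 52 sarcomere and mature myotube genes had none at a decreased domain. Mylk2, the skeletal myosin light chain kinase gene, had its start inside a domain of 5 regions led by Foxs1 (chr2:152903884-152932455), whose widest region was 8044 bp. Scn4a, the sodium channel of skeletal muscle, had 3 regions around its start (chr11:106344357-106359543), and the splicing regulator of titin, Rbm20, had 3 inside the gene (chr19:53758886-53768301). The domain led by Synpo held the start of Myoz3, a Z-disc protein gene. Smyd2, a lysine methyltransferase gene, had 5 regions over 24735 bp.

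A small number of decreased domains had regions in repeated sequence, where short reads cannot be placed with confidence. Regions with over 50% of their 31-base words present more than once were found in 0 increased and 5 decreased domains. Their shares were 50.4% at the paralogous genes Csf2rb and Csf2rb2, 70.4% at Dcdc2c, 63.1% at Gm11042, 87.3% at Mlph and 76.6% at Lyrm7. Their part in the listing of those domains was not tested.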

How the data were processed

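H3K27ac and IgG CUT&RUN libraries of Nrip1KO and Ctrl myotubes were made by the authors, who aligned paired reads to mm10 with BWA-MEM2 (BWA 2.2.1 in the submitters' processing notes), called broad peaks with HOMER 4.11 and took peaks of at least 2-fold different intensity as differential. How replicates and IgG entered is not stated, and the labels and the methods name different suppliers of the H3K27ac antibody. The deposited lists are 2 sets of intervals in base positions, 1 per direction, with an identical score in every row, which was not used.

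Starts were read as 0-based and are given counted from 1. Regions were joined and kept as described, genes came from GENCODE M21, and GC content, soft-masked repeats and motifs were computed on GRCm38.p6. A region belonged to the gene whose start was nearest to its centre. Copies of 31-base words were counted over the assembly. Chaining and motif search were tested on simulated data and recovered what had been planted. Tools were Python 3.11.15, numpy 2.4.6, scipy 1.17.1, pysam 0.24.0 and matplotlib 3.10.9.

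Domains named by rule were, per direction, the 8 with most regions (ties by covered bases), the 5 with most covered bases, those at genes of 12 lists, those nearest an opposite region, and those at either end of GC content and promoter share; the other increased domains were added to complete the account, and further decreased domains (genes with several domains, genes of muscle tissue, ties, those at the gap limit and those in repeated sequence) were named after their values were seen. The members, lists and tests were chosen with earlier results of these data known. Alternatives were other gaps, minimum numbers, joining, widths, chromosomes, promoter distances and windows.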

Additional observations from a re-analysis of the deposited data

How the results depend on the processing

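No domain count is independent of the joining rule. With gaps of at most 5000 bp there were 10 increased domains (34 regions) and 66 decreased (213 regions), and with 25000 bp 44 (155) and 284 (1096). At least 4 regions gave 7 (35) and 48 (236), and at least 5 gave 4 (23) and 18 (116). Using regions of at least 1000 bp gave 4 (13) and 36 (128), and joining regions within 1000 bp first gave 14 (53) increased domains. With chromosomes 4, 7, 10 and 16 there were 78 (287) and 273 (992). The share of increased regions moved from 12.1% to 16.5% with at least 5 regions, 9.81% with joining, 9.22% with the wider regions and 22.4% with all chromosomes. Each was below the 30.2% of all eligible regions in the main setting. The joined, wider and all-chromosome settings have other backgrounds, and the whole lists held 3917 increased of 11180 regions. Within 2500 bp of a start, 11.3% of increased and 21.0% of decreased domain regions were promoter-proximal. With all annotated genes, 16 increased and 94 decreased domains had 1 nearest gene. Without X, no count moved by more than 1.5 times, and the decreased counts could not move because X held no decreased domain. Ending domains at an opposite region could change no count, since no domain had one inside. Motif shares rose over whole regions, for the E-box to 51.3% and 61.1%, and for MEF2 in decreased domain regions to 17.4%. No paired analysis was possible because the lists hold no value per library, and leaving out a replicate could not be run for the same reason.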
